A study of Mus musculus with 22 samples.

Results

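The insulin-like growth factor (IGF) family was followed through 10 genes: the ligands Igf1 and Igf2, the receptors Igf1r and Igf2r, and the binding proteins Igfbp2, Igfbp3, Igfbp4, Igfbp5, Igfbp6 and Igfbp7. Members were all probe sets (the groups of short probes that read 1 transcript end) that the platform annotation gives to 1 of these genes alone, which left 28 probe sets of the 45037 measured and 10 of 18193 genes. Igf1r and Igfbp4 had the most probe sets, 5 and 6, and Igfbp2 and Igfbp6 had 1 each.

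RNA came from granulation tissue that grew into a viscose cellulose sponge placed under the dorsal skin of male mice, 5 to 8 weeks old by the labels. WT and Mmp13-/- mice were compared at 7 d, at 14 d and at 21 d after implantation. The labels give both genotypes a C57BL/6 x 129 mixed background, and the design text states at least 7 generations of backcrossing into C57BL6 mice, with WT animals bred from the same heterozygotes. Every group carried the sponge, and the Mmp13-/- mice lack the collagenase MMP-13 in all cells rather than in 1 cell type. There were 3 arrays per genotype at 7 d, 4 at 14 d and 4 at 21 d, each from its own mouse according to the design text.

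IGF-1 and IGF-2 are secreted peptides that drive growth and survival through the tyrosine kinase receptor IGF1R, whereas IGF2R, the mannose 6-phosphate receptor, takes IGF-2 up for breakdown in lysosomes. The binding proteins hold the ligands outside cells, lengthen their life and either block or deliver them, and proteinases that cut the binding proteins free the ligand. In healing skin, fibroblasts and macrophages are known sources of IGF-1.

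The values are log2 signals after robust multi-array averaging (RMA), so a difference of 1 is a doubling of signal. Mmp13 itself read 7.62 to 8.63 on the Mmp13-/- arrays and 10.26 to 12.02 on the WT arrays, with no overlap, and which exons the probe set reads was not checked. The arrays fell into 2 hybridization series with different RNA input and labelling kits. All 7 d arrays and replicates 1 to 3 of each 14 d group were in series 1, and replicate 4 of each 14 d group and all 21 d arrays were in series 2. The series was a term in every test, and the comparison of 21 d with 14 d therefore rests on the 2 series 2 arrays at 14 d. Fibroblast markers were bright on every array, with list means from 10.70 to 11.34, and macrophage markers read 8.84 to 9.91. In RNA from whole tissue, fewer cells of a type and less RNA per cell cannot be told apart.

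Igfbp2 and its neighbour Igfbp5 lie next to each other on mouse chromosome 1 with no annotated gene between them, and Igfbp1 and Igfbp3 are neighbours on chromosome 11. The 250 bases before the annotated start are shown for 3 binding proteins with different courses: Igfbp2, which rose most, its neighbour Igfbp5, which was not called between 7 d and 14 d, and Igfbp4, which rose in WT. Sequences are from RefSeq on GRCm38.p6, written 5′ to 3′ on the strand of the gene. Capitals mark GGGCGG, the GC box letters, and TATAAA, the TATA box letters, on either strand.
Igfbp2, chr1:72824230-72824479, plus strand: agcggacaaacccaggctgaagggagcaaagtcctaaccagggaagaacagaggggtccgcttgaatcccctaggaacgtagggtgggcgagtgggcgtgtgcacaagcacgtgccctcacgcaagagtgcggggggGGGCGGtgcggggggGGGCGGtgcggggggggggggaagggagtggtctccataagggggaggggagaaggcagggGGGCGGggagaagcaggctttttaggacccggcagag
Igfbp5, chr1:72874866-72875115, minus strand: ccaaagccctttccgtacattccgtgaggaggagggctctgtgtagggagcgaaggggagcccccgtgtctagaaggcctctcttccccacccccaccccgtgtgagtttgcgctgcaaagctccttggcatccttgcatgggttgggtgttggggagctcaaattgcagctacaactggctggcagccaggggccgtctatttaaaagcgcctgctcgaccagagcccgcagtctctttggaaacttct
Igfbp4, chr11:99040994-99041243, plus strand: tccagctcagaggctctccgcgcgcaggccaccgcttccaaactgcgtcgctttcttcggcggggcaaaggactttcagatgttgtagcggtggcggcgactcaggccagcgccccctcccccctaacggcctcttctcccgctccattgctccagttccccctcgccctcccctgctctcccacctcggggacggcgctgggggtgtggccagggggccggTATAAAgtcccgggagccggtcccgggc
The Igfbp2 window held GGGCGG 3 times, the Igfbp5 window held neither motif, and the Igfbp4 window held TATAAA once. Of 32851 mouse promoter windows of this length, 32.7% held GGGCGG and 12.4% held TATAAA. Igfbp2 has another annotated start, whose window held neither motif. All 10 genes had at least 1 promoter entry. The array files name no genome build, and the matches describe letters, not bound factors.

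Between 7 d and 14 d, probe sets of 6 IGF family genes were called higher in WT and of 3 in Mmp13-/- tissue, and none of the family was called lower. In WT tissue 14 of the 28 probe sets were called higher, at an adjusted p under 0.05 over all probe sets tested, beside 1.7% of all probe sets called in either direction and 1.13% called higher. In Mmp13-/- tissue 5 of 28 were called, all higher, beside 0.628% of all in either direction and 0.326% higher. The median change of the 28 was 0.55 in WT and 0.31 in Mmp13-/- tissue, against -0.01 and 0.00 over all probe sets. Positive changes were found for 24 of the 28 in WT and 23 in Mmp13-/- tissue. No probe set of the array was called for a difference between genotypes in this change, so the unequal counts of calls show no genotype difference. The WT calls came from Igf1, Igf1r, Igfbp2, Igfbp3, Igfbp4 and Igfbp7, and the Mmp13-/- calls from Igf1, Igf2r and Igfbp2. With only the arrays of the groups compared the WT count was 1, that of Igfbp2. Without WT 14 d replicate 3 it was 5, without WT 7 d replicate 1 it was 6, and without WT 7 d replicate 2 or WT 14 d replicate 2 it was 9. The Mmp13-/- count was 1 or 2 without any 1 of 6 arrays, replicates 1 to 3 of its 7 d and 14 d groups.

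**Figure D1:**
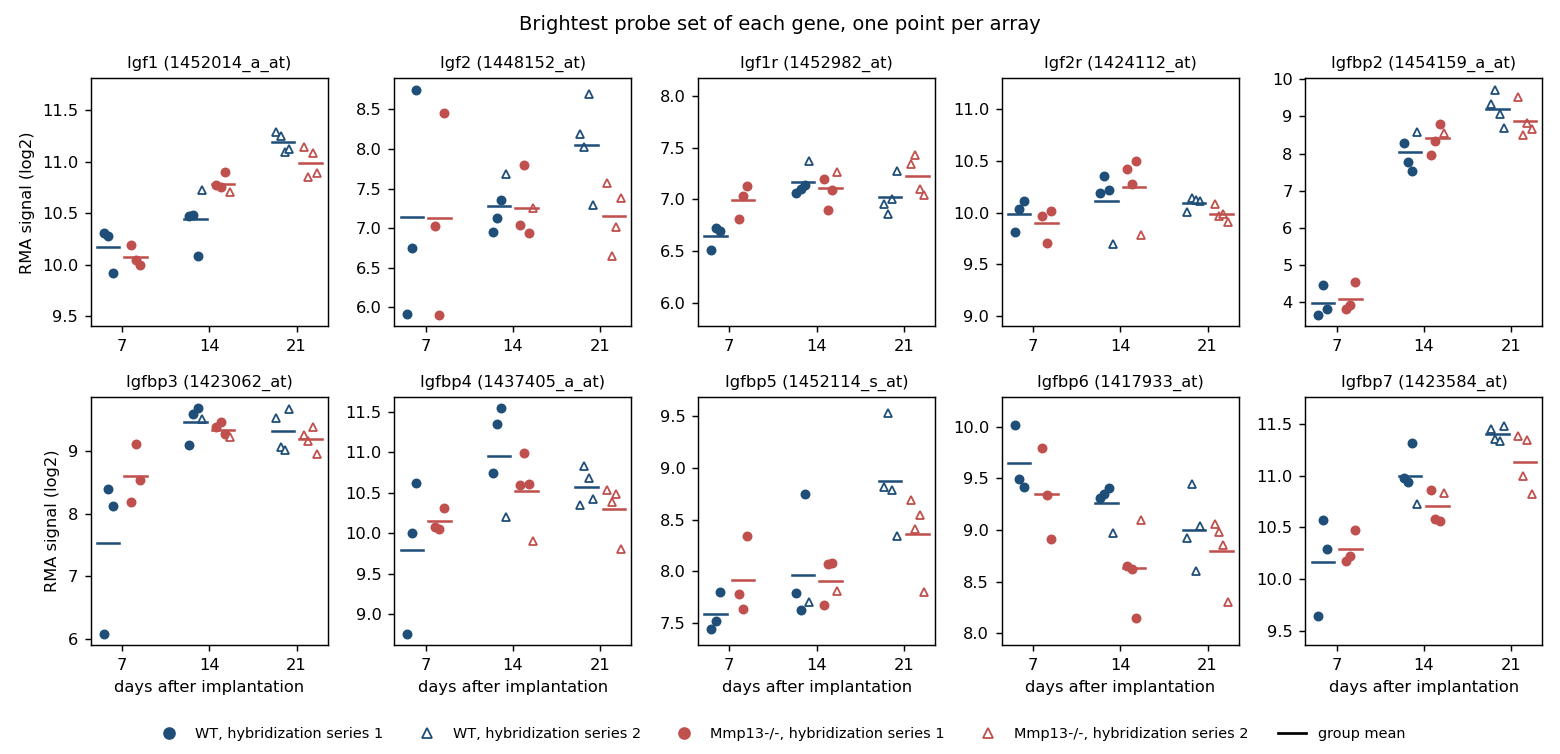
RMA signal on a log2 scale of the brightest probe set of each gene, by days after implantation, with 1 point per array, blue for WT and red for Mmp13-/-; filled circles are hybridization series 1, open triangles series 2, and bars are group means of all arrays. Igfbp2 lies between 3.65 and 4.55 at 7 d and between 7.54 and 9.72 later in both genotypes, and panels differ in their vertical range.

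Igf1, the main circulating and local growth factor of the family, was bright on all arrays and read higher on later days. Its probe set 1452014_a_at read 10.31, 10.28 and 9.92 in WT and 10.19, 10.05 and 10 in Mmp13-/- tissue at 7 d. At 14 d it read 10.47, 10.48, 10.09 and 10.72 in WT and 10.77, 10.75, 10.90 and 10.71 in Mmp13-/- tissue. At 21 d it read 11.29, 11.25, 11.09 and 11.12 in WT and 11.14, 10.85, 11.08 and 10.89 in Mmp13-/- tissue. The Mmp13-/- arrays of 14 d all lay above those of 7 d, while in WT the 14 d arrays overlapped those of 7 d and all 21 d arrays lay above them.

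All 4 Igf1 probe sets had positive changes from 7 d to 14 d in both genotypes, from 0.24 to 0.78 in WT and from 0.55 to 0.77 in Mmp13-/- tissue. In limma's moderated test 2 of the 4 were called in WT (1437401_at, 0.67, SE 0.14, adjusted p = 0.0136, and 1434413_at, 0.78, SE 0.16, adjusted p = 0.0129). In Mmp13-/- tissue 3 were called (1452014_a_at, 1419519_at and 1434413_at, with adjusted p from 0.02 to 0.0268). Each of these Igf1 calls was lost when 1 or more of the arrays was left out singly. No Mmp13-/- Igf1 probe set was called without Mmp13-/- 7 d replicate 1, 2 or 3 or Mmp13-/- 14 d replicate 2 or 3, and 1 was called without Mmp13-/- 14 d replicate 1. In WT none was called without WT 7 d replicate 3 and 1 without WT 7 d replicate 2 or WT 14 d replicate 3.

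From 14 d to 21 d Igf1 was the one gene of the family with calls. In WT tissue 1434413_at was higher by 1.15 (SE 0.19, adjusted p = 0.0203 by limma) and 1437401_at by 0.75 (SE 0.16, adjusted p = 0.0497), and these 2 of 28 stand beside 0.42% of all probe sets called and 0.182% called higher. 1434413_at read 9.37, 9.18, 9.36 and 9.24 at 14 d and 10.35, 10.25, 10.34 and 9.83 at 21 d in WT, with no overlap. In Mmp13-/- tissue it read 9.56, 9.54, 9.81 and 9.05 at 14 d and 9.99, 9.68, 9.95 and 9.65 at 21 d, a difference of 0.57 (SE 0.19, adjusted p = 0.186), and the arrays overlapped. No member was called between 14 d and 21 d in Mmp13-/- tissue, where 0.0799% of all probe sets were called, and 6 members had an unadjusted p under 0.05, beside 13.7% of all. Neither WT call of Igf1 held within hybridization series 2, which has 1 WT array at 14 d (0.95 and 0.51, adjusted p = 0.912 and 0.95), or without Mmp13-/- 14 d replicate 4. The call of 1437401_at was also lost without any 1 of 18 other arrays.

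The genotype difference of Igf1 had opposite signs at 14 d and 21 d, and neither was called. In the fit to all arrays all 4 probe sets were higher in Mmp13-/- tissue at 14 d (0.14 to 0.34, unadjusted p from 0.00623 to 0.266, lowest adjusted p 0.999). At 21 d all 4 were lower (-0.38 to -0.12, unadjusted p from 0.0165 to 0.241, lowest adjusted p 0.3). At 14 d only replicate 4 of each group was in series 2, with all 21 d arrays. Between these replicate 4 arrays the difference was -0.01 for 1452014_a_at and 0.06 for 1419519_at. There 1437401_at read 10.43 in WT and 10.08 in Mmp13-/- tissue, and 1434413_at was also lower in Mmp13-/- tissue. Whether the change of sign goes with the day or with the series was not tested. 1437401_at read 11.05, 11.11, 10.88 and 10.71 in WT and 10.69, 10.68, 10.67 and 10.44 in Mmp13-/- tissue at 21 d, which did not overlap. The change of the genotype difference from 14 d to 21 d had unadjusted p from 0.00432 to 0.0168 and adjusted p from 0.588 to 0.662 over the 4 probe sets, so it did not pass.

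Igf2, the fetal growth factor expressed from the paternal copy, was the most scattered ligand. At 7 d 1448152_at read 5.91, 6.75 and 8.75 in WT and 7.02, 5.90 and 8.46 in Mmp13-/- tissue. The 14 d arrays read 6.95, 7.13, 7.35 and 7.68 in WT and 7.04, 7.80, 6.94 and 7.25 in Mmp13-/- tissue. The 21 d arrays read 8.19, 8.03, 8.70 and 7.29 in WT and 7.57, 6.65, 7.01 and 7.38 in Mmp13-/- tissue. Only WT 21 d replicate 4 reached into the Mmp13-/- range at 21 d. The genotype difference at 21 d was -0.90 (SE 0.50, 95% interval -1.95 to 0.15, unadjusted p = 0.0884, adjusted p = 0.495 by limma, exact two-sided permutation p = 0.0857), and it was not called. The study had listed Igf2 from these arrays as lower in Mmp13-/- tissue at 21 d, at a log2 difference over 0.75 and P under 0.05. Its direction here is therefore not independent evidence, and the unadjusted p of this fit, which had a series term, did not reach that P threshold. The other Igf2 probe set, 1415931_at, read 2.47 to 3.59 on all arrays, below the median of probe set means of 4.22, and gave no usable level.

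The signalling receptor Igf1r was read by 5 probe sets, of which 1446303_at and 1452108_at were below that median. 1428967_at read 5.58, 5.86 and 6.14 in WT and 6.21, 6.21 and 6.47 in Mmp13-/- tissue at 7 d. Its 14 d signals were 6.33, 6.47, 6.46 and 6.78 in WT and 6.63, 6.36, 6.48 and 6.35 in Mmp13-/- tissue. Its 21 d signals were 6.23, 6.18, 6.21 and 6.52 in WT and 6.77, 6.82, 6.61 and 6.60 in Mmp13-/- tissue. The genotypes were apart at 7 d and 21 d and overlapped at 14 d.

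In WT 1428967_at rose by 0.62 from 7 d to 14 d (SE 0.14, adjusted p = 0.0228 by limma), and in Mmp13-/- tissue the difference was 0.13 (SE 0.14, adjusted p = 1). The WT call of Igf1r was lost without WT 7 d replicate 1 or 2, without WT 14 d replicate 2 or 3, and within series 1 (0.56, adjusted p = 0.0522). The change of the genotype difference from 7 d to 14 d was -0.49 (SE 0.19, unadjusted p = 0.018, adjusted p = 1). The genotype differences of 0.44 at 7 d (SE 0.14, unadjusted p = 0.00666, adjusted p = 1) and 0.42 at 21 d (SE 0.12, unadjusted p = 0.00341, adjusted p = 0.187) were not called. The 2 other Igf1r probe sets above the median of probe set means had positive differences on the same days, 0.35 and 0.21 for 1452982_at and 0.20 and 0.28 for 1426565_at. 1452982_at differed by 0.47 from 7 d to 14 d in WT (SE 0.12, adjusted p = 0.0607) and was called within series 1 (0.46, adjusted p = 0.0432).

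The clearance receptor Igf2r gave 2 probe sets that differed between the hybridization series in opposite directions. 1424112_at was lower in series 2 by 0.59 and 1424111_at was higher by 0.89, at adjusted p = 0.000684 and 0.000308 by limma. Both differences rest on replicate 4 of each 14 d group. In the 14 d groups 1424112_at read 10.19, 10.36, 10.22 and 9.70 in WT and 10.42, 10.28, 10.50 and 9.78 in Mmp13-/- tissue, with replicate 4 lowest in each. At 7 d it read 9.81, 10.04 and 10.11 in WT and 9.97, 9.71 and 10.02 in Mmp13-/- tissue. The call of 1424112_at from 7 d to 14 d in Mmp13-/- tissue (0.49, SE 0.10, adjusted p = 0.0259) did not hold within series 1 (0.50, adjusted p = 0.0501), without the hybridization term, after quantile normalization, or without Mmp13-/- 7 d replicate 1 or 2 or Mmp13-/- 14 d replicate 1 or 3. 1424111_at differed by 0.07 in that comparison (SE 0.14, adjusted p = 1).

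Igfbp2, a binding protein that prefers IGF-2, had the steepest course of the family. At 7 d its probe set read 3.65, 4.45 and 3.81 in WT and 3.80, 3.91 and 4.55 in Mmp13-/- tissue. At 14 d it read 8.29, 7.78, 7.54 and 8.59 in WT and 7.95, 8.35, 8.80 and 8.55 in Mmp13-/- tissue. At 21 d it read 9.33, 9.72, 9.07 and 8.68 in WT and 9.51, 8.51, 8.81 and 8.65 in Mmp13-/- tissue. Every array of 14 d and 21 d lay above every array of 7 d, and the genotypes overlapped on each day. In order of level the group means were 3.97 ± 0.42 in WT and 4.09 ± 0.41 in Mmp13-/- tissue at 7 d (SD, n = 3), 8.05 ± 0.48 and 8.41 ± 0.36 at 14 d (n = 4), and 8.87 ± 0.44 for Mmp13-/- and 9.20 ± 0.44 for WT at 21 d (n = 4). In this order, which mixes the genotypes, the step from 7 d to 14 d was the only one at which the arrays of neighbouring groups did not overlap. Within WT, all 21 d arrays (8.68 to 9.72) also lay above all 14 d arrays (7.54 to 8.59).

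Igfbp2 rose from 7 d to 14 d by 3.97 in WT (SE 0.30, adjusted p = 6.05e-07 by limma) and by 4.21 in Mmp13-/- tissue (SE 0.30, adjusted p = 3.09e-07). Of 45037 probe sets, Igfbp2 ranked 2 by p in WT and 1 in Mmp13-/- tissue. At 7 d 4 of the 6 arrays read below the median of probe set means, and both 7 d means lay below it, so no fold is given. The study had named Igfbp2, Igfbp3 and Igfbp4 from these WT arrays, so their directions from 7 d to 14 d are not independent evidence. The rise was called in both genotypes under all 31 alternatives run for it, from 3.81 to 4.21 in WT and from 4.01 to 4.44 in Mmp13-/- tissue. The genotypes differed in the rise by 0.25 (95% interval -0.60 to 1.09, adjusted p = 1). Genotype differences were 0.12 at 7 d, 0.36 at 14 d and -0.33 at 21 d, each with an adjusted p of at least 0.658. From 14 d to 21 d it differed by 0.81 in WT (SE 0.35, adjusted p = 0.3) and 0.12 in Mmp13-/- tissue (SE 0.35, adjusted p = 0.917). The WT value was called only without the hybridization term (1.15, adjusted p = 0.0135 by limma).

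The gene next to it, Igfbp5, which binds matrix as well as IGFs, was called in no comparison. 1452114_s_at read 7.44, 7.52 and 7.80 in WT and 7.78, 7.63 and 8.34 in Mmp13-/- tissue at 7 d. The 14 d arrays read 7.79, 7.62, 8.75 and 7.70 in WT and 7.67, 8.07, 8.08 and 7.81 in Mmp13-/- tissue. The 21 d arrays read 8.82, 9.53, 8.79 and 8.34 in WT and 8.69, 8.41, 8.54 and 7.80 in Mmp13-/- tissue. The 7 d and 14 d arrays overlapped in both genotypes, and in WT 1 array of 14 d, replicate 3, reached the 21 d range.

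The Igfbp5 change from 7 d to 14 d was 0.44 in WT (95% interval -0.16 to 1.04, adjusted p = 0.763) and 0.05 in Mmp13-/- tissue (95% interval -0.55 to 0.65, adjusted p = 1). From 14 d to 21 d it was 1.09 in WT (SE 0.34, adjusted p = 0.143) and 0.63 in Mmp13-/- tissue (SE 0.34, adjusted p = 0.422). The WT value was called only without the hybridization term, and within series 2 it was 1.17 (adjusted p = 0.95). The other Igfbp5 probe set, 1422313_a_at, stayed between 5.12 and 5.73 on all arrays and was called in none of the comparisons.

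Igfbp3, the main carrier of IGFs in serum, rose in WT between 7 d and 14 d. 1423062_at read 6.08, 8.40 and 8.13 in WT and 8.18, 9.11 and 8.53 in Mmp13-/- tissue at 7 d. Its 14 d signals were 9.10, 9.59, 9.68 and 9.51 in WT and 9.38, 9.47, 9.28 and 9.23 in Mmp13-/- tissue. Its 21 d signals were 9.53, 9.07, 9.02 and 9.67 in WT and 9.26, 9.16, 9.38 and 8.96 in Mmp13-/- tissue. WT 7 d replicate 1 stood more than 2 log2 units below every other array, and in each genotype all 14 d arrays lay above the 7 d arrays.

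The WT rise of Igfbp3 was 1.95 for 1423062_at (SE 0.38, adjusted p = 0.00824 by limma) and 1.72 for 1458268_s_at (SE 0.30, adjusted p = 0.00385). The Mmp13-/- values were 0.75 (SE 0.38, adjusted p = 0.817) and 0.80 (SE 0.30, adjusted p = 0.427). With only the arrays of the groups compared neither WT value of Igfbp3 was called (adjusted p = 0.206 and 0.158). Within series 1 the WT values were 1.92 (adjusted p = 0.0606) and 1.67 (adjusted p = 0.037). Without WT 7 d replicate 1 the WT value of 1423062_at was 1.22 (adjusted p = 0.0109) and both probe sets were still called, while the Mmp13-/- value of 1458268_s_at was then called too (0.80, adjusted p = 0.0482). The genotype difference of 1423062_at at 7 d was 1.07 (SE 0.39, unadjusted p = 0.0126, adjusted p = 1) and 0.34 without that array. The change of the genotype difference from 7 d to 14 d was -1.20 (95% interval -2.28 to -0.12, unadjusted p = 0.0307, adjusted p = 1), and without WT 7 d replicate 1 it was -0.47. For 1458268_s_at it was -0.92 (unadjusted p = 0.0364, adjusted p = 1) and -0.37 without that array.

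In WT, markers of vessels were lowest on the array on which Igfbp3 was lowest. The mean over the 7 endothelial markers was 5.08 on WT 7 d replicate 1 and 6.10 to 7.65 on the other arrays, and the mean over the 6 myofibroblast and smooth muscle markers was 5.67 on that array and 6.36 to 7.68 on the others. None of the 7 endothelial markers was below the median of probe set means, against 1 of the 6 contractile markers. From 7 d to 14 d in WT 6 of the 7 endothelial markers had positive values with a median of 1.30 and none was called, and Acta2 and Tagln of the contractile list were called higher. In Mmp13-/- tissue the endothelial median was 0.16 and no endothelial marker had an unadjusted p under 0.05. Neither Igfbp3 probe set was called in that tissue (adjusted p = 0.817 and 0.427 by limma). The 7 d and 14 d arrays there did not overlap for 1423062_at and did for 1458268_s_at. Skeletal muscle markers were also lowest on that array within its group, at 6.11 beside 9.58 and 10.78. On Mmp13-/- 7 d replicate 2 they read 6.83, beside 9.76 and 10.56, and there Igfbp3 1423062_at was the highest of its group at 9.11. The part of these cells in the results of Igfbp3, Igfbp4 and Igfbp7 was not tested.

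Igfbp4, which holds IGFs away from their receptor until it is cleaved, was read by 6 probe sets with the same course. At 7 d 1437405_a_at read 8.76, 10 and 10.62 in WT and 10.08, 10.05 and 10.31 in Mmp13-/- tissue. At 14 d it read 10.74, 11.35, 11.54 and 10.20 in WT and 10.60, 10.99, 10.61 and 9.90 in Mmp13-/- tissue. At 21 d it read 10.35, 10.83, 10.68 and 10.42 in WT and 10.54, 10.39, 10.48 and 9.81 in Mmp13-/- tissue. Replicates 1 to 3 of WT 14 d lay above all WT 7 d arrays on all 6 probe sets. Replicate 4, of series 2, lay below the highest 7 d array on all 6. All 21 d arrays were in series 2. With the series term all 6 probe sets were higher at 21 d than at 14 d, and none was called. The changes were 0.30 to 0.83 in WT (lowest adjusted p 0.278 by limma) and 0.47 to 1.1 in Mmp13-/- tissue (lowest adjusted p 0.173). Without the series term 1437405_a_at changed by -0.39 in WT and -0.22 in Mmp13-/- tissue.

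Across replicates 1 to 3, the 14 d arrays lay above the 7 d arrays for 18 of the 28 family probe sets in WT, beside 8.36% of all probe sets, and for 14 in Mmp13-/- tissue, beside 9.94%. Igfbp4 gave 6 of the 18 and 5 of the 14. Igfbp6 was the one member whose series 1 arrays lay lower at 14 d in both genotypes, beside 9.02% and 7.95% of all.

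All 6 Igfbp4 probe sets were called higher at 14 d than at 7 d in WT, by 0.90 to 1.69 (SE 0.22 to 0.33, adjusted p from 0.00797 to 0.0361). In Mmp13-/- tissue the 6 values were 0.26 to 0.61 and none was called (adjusted p from 0.616 to 1). The change of the genotype difference from 7 d to 14 d was negative for all 6 (-1.14 to -0.62, unadjusted p from 0.0191 to 0.0752) and had an adjusted p of 1 for each. Without WT 7 d replicate 1 it was -0.27 in place of -0.79 for 1437405_a_at, -0.69 in place of -1.14 for 1423756_s_at and -0.59 in place of -0.98 for 1423757_x_at, and without WT 7 d replicate 3 it was -1.20 for 1437405_a_at. The WT calls rested on the series term and on single arrays. None was called without the hybridization term or with only the arrays of the groups compared, 5 within series 1, 1 without WT 7 d replicate 1 or without WT 14 d replicate 3, 3 without WT 7 d replicate 2 or WT 14 d replicate 2, 4 without WT 14 d replicate 4 or Mmp13-/- 14 d replicate 4, and 5 without Mmp13-/- 14 d replicate 2. All 6 stayed positive in each of these.

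At 14 d all 6 Igfbp4 probe sets were lower in Mmp13-/- tissue, by -0.87 to -0.43 (unadjusted p from 0.00117 to 0.13, lowest adjusted p 0.625), and at 21 d all 6 were lower by -0.54 to -0.25 (lowest adjusted p 0.423). These were not calls. 1423756_s_at read 9.91, 10.41, 10.88 and 8.78 in WT and 9.40, 9.73, 9.34 and 8.03 in Mmp13-/- tissue at 14 d, and both the series 1 arrays and the series 2 arrays were higher in WT. It was lower by 0.91 within series 1 and by 0.75 within series 2. All 7 endothelial markers were also lower in Mmp13-/- tissue at 14 d (median -0.35, none called). So were 9 of 10 fibroblast markers (median -0.27, 6 with an unadjusted p under 0.05, Lum called), whose mean was 11.02 to 11.34 on the WT 14 d arrays and 10.80 to 11.00 on the Mmp13-/- ones, with no overlap. Keratinocyte markers averaged 5.72, 4.33, 6.08 and 4.16 on the WT 14 d arrays and 3.94 to 4.24 on the Mmp13-/- ones, and 5 of these 8 markers were below the median of probe set means. The part of these cells in the 14 d differences of Igfbp4, Igfbp6 and Igfbp7 was not tested. Probe sets of 1 gene share their RNA, so the 6 are not 6 observations.

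**Figure D2:**
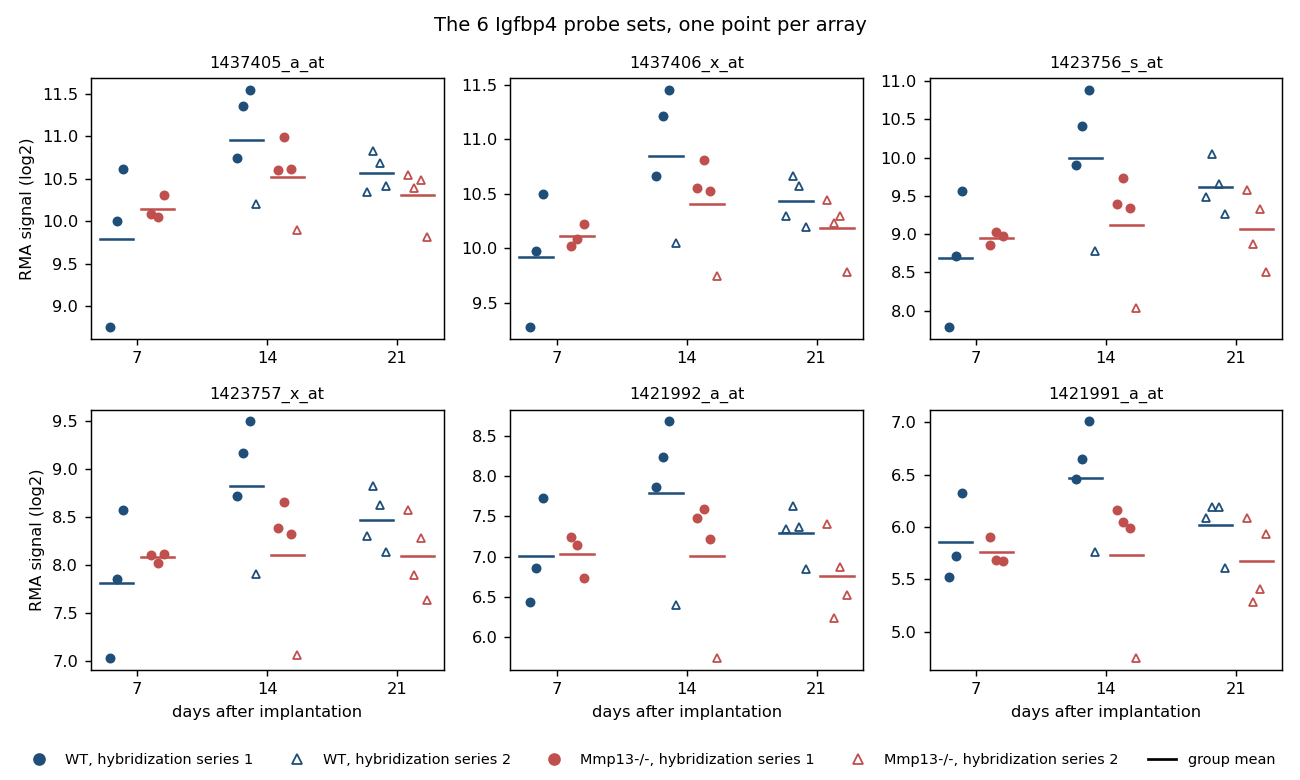
RMA signal on a log2 scale of the 6 Igfbp4 probe sets by days after implantation, with 1 point per array, blue for WT and red for Mmp13-/-; filled circles are hybridization series 1, open triangles series 2, and bars are group means of all arrays. The 4th array of each 14 d group, in series 2, lies below replicates 1 to 3 of its group on all 6 probe sets, and WT replicates 1 to 3 of 14 d lie above the Mmp13-/- ones on 4 of the 6.

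Signals of Igfbp4 differed more between the hybridization series than those of any other member. Signals of the 6 probe sets were lower in series 2 by -1.78 to -0.92, and 5 of the 6 differences were called. Of the 28 family probe sets 7 differed between the series, these 5 and both of Igf2r, beside 13.3% of all probe sets.

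Igfbp6, which binds IGF-2 by preference, had its highest values at 7 d and was called in no comparison. It read 10.02, 9.49 and 9.42 in WT and 9.79, 9.34 and 8.91 in Mmp13-/- tissue at 7 d. The 14 d arrays read 9.31, 9.35, 9.41 and 8.97 in WT and 8.65, 8.62, 8.15 and 9.10 in Mmp13-/- tissue. The 21 d arrays read 8.92, 9.44, 8.60 and 9.04 in WT and 9.06, 8.98, 8.85 and 8.30 in Mmp13-/- tissue. At 14 d the first 3 Mmp13-/- arrays lay below every WT array and the 4th did not.

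The Igfbp6 differences from 7 d to 14 d were -0.41 in WT (SE 0.25, adjusted p = 0.72) and -0.75 in Mmp13-/- tissue (SE 0.25, adjusted p = 0.32). The genotype difference at 14 d was -0.63 (SE 0.23, unadjusted p = 0.0118, adjusted p = 0.999), made of -0.88 within series 1 and 0.13 between the 2 arrays of series 2.

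Igfbp7, a binding protein of the vessel wall with low affinity for IGFs, read higher on later days on its brightest probe set. 1423584_at read 9.64, 10.57 and 10.29 in WT and 10.17, 10.22 and 10.47 in Mmp13-/- tissue at 7 d. Its 14 d signals were 10.98, 10.94, 11.32 and 10.73 in WT and 10.86, 10.58, 10.56 and 10.83 in Mmp13-/- tissue. Its 21 d signals were 11.45, 11.36, 11.34 and 11.48 in WT and 11.38, 11.00, 11.35 and 10.82 in Mmp13-/- tissue. The 3 days did not overlap in WT, and in Mmp13-/- tissue 14 d and 21 d did. At 14 d only replicate 4 of each group was in series 2, with all 21 d arrays. With the series term 1423584_at differed from 14 d to 21 d by 0.485 in WT (adjusted p = 0.338 by limma). In Mmp13-/- tissue it differed by 0.5 (adjusted p = 0.335), and neither was called. The genotypes differed in this change by 0.015 (adjusted p = 0.997).

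From 7 d to 14 d Igfbp7 was called higher in WT by 1423584_at (0.85, SE 0.19, adjusted p = 0.0231 by limma) and 1423585_at (0.78, SE 0.18, adjusted p = 0.0306). The same probe sets gave 0.44 (adjusted p = 0.616) and 0.08 (adjusted p = 1) in Mmp13-/- tissue. Both WT calls were lost without WT 7 d replicate 1, WT 14 d replicate 1 or WT 14 d replicate 3, and 1 was lost without WT 7 d replicate 3, WT 14 d replicate 2, WT 14 d replicate 4 or Mmp13-/- 14 d replicate 4. At 14 d 1423585_at read 5.93, 5.83, 6.24 and 6.03 in WT and 5.56, 5.54, 5.37 and 5.63 in Mmp13-/- tissue, apart by -0.48 (SE 0.16, unadjusted p = 0.00811, adjusted p = 0.999). It was the one member wholly lower at 14 d, beside 1.9% of all probe sets. The third probe set, 1437804_at, differed by 0.00 in WT and 0.04 in Mmp13-/- tissue from 7 d to 14 d.

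**Figure D3:**
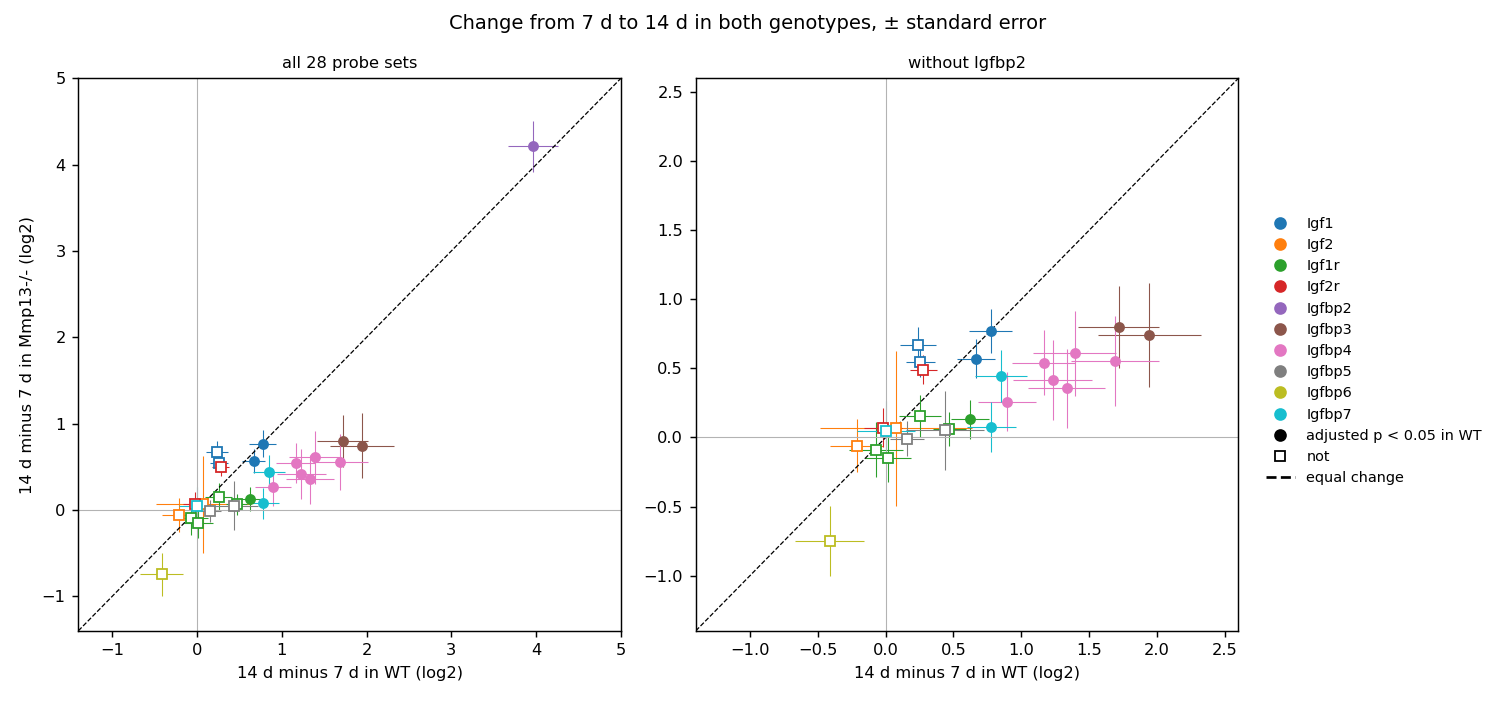
Change from 7 d to 14 d in WT (horizontal) against Mmp13-/- tissue (vertical), both log2 with standard errors, for all 28 probe sets at left and without Igfbp2 at right; circles were called in WT, squares were not, and the dashed line marks equal change. Igfbp2 is near the line at 3.97 and 4.21, and the Igf1r, Igfbp3, Igfbp4 and Igfbp7 circles lie below it. Circles were picked by their WT change, which by itself favours a place below the line. No probe set was called for a difference between genotypes in this change.

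No member was called between genotypes on any day or over the 3 days together. The shares of all probe sets called were 0.00888% at 7 d, 0.0178% at 14 d, 0.0488% at 21 d and 0.0688% for the mean of the 3 days. At an unadjusted p under 0.05 there were 4 members at 7 d, 8 at 14 d, 3 at 21 d and 7 over the 3 days, where all probe sets gave 2.16%, 3.98%, 11.9% and 6.56%. The 4 at 7 d were higher and belonged to Igf1r and Igfbp3. At 14 d the 2 of Igf1 were higher and the 6 of Igfbp4, Igfbp6 and Igfbp7 were lower. At 21 d 1 Igf1r probe set was higher and 2 of Igf1 were lower. Arrays did not overlap between genotypes for 4 members at 7 d, all higher in Mmp13-/- tissue, beside 3.93% of all probe sets, and at 21 d for 1 higher, of Igf1r, beside 1.37%, and 1 lower, of Igf1, beside 1.61%. No change of a genotype difference was called for any probe set of the array, and 9 members from 7 d to 14 d and 5 from 14 d to 21 d had an unadjusted p under 0.05, beside 2.29% and 6.58% of all.

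**Figure D4:**
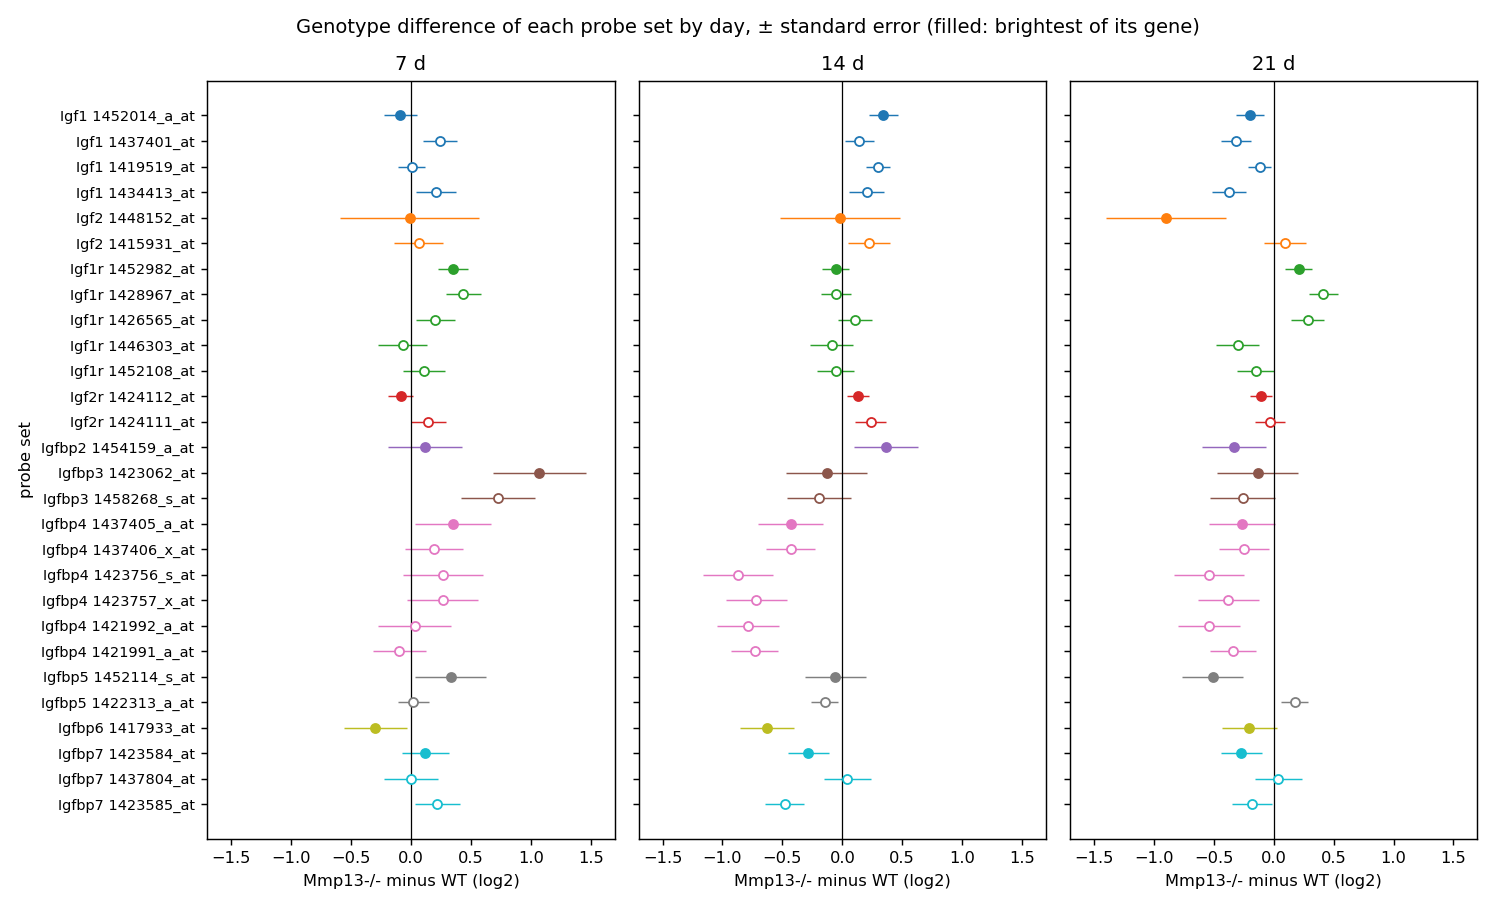
Difference of Mmp13-/- minus WT on a log2 scale at 7 d (left), 14 d (middle) and 21 d (right) for each of the 28 probe sets, with standard errors and filled points for the brightest probe set of each gene. At 14 d all 6 Igfbp4 points lie left of 0, at 21 d the brighter Igf2 probe set lies at -0.90, and none of the points was called.

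Of the 28 values, 21 were above 0 at 7 d and 22 were below 0 at 21 d. Probe sets of 1 gene are not separate observations. By the brightest probe set of each of the 10 genes, 6 were above 0 at 7 d and 9 were below 0 at 21 d. The median was 0.13 at 7 d, -0.06 at 14 d and -0.22 at 21 d, against -0.01, 0.01 and 0.00 over all probe sets.

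Other genes of the pathway were counted on the brightest probe set of each. Among 10 proteinases that cut binding proteins and their inhibitors, Ctsd, Mmp2 and Mmp3 were higher at 14 d than at 7 d in WT, with log2 differences of 0.44, 0.57 and 2.62 (adjusted p = 0.0269, 0.0399 and 0.000446), beside 1.63% of genes called higher. In Mmp13-/- tissue none of the 10 was called. Mmp2, gelatinase A, was lower in Mmp13-/- tissue at 14 d by -0.92 (SE 0.13, adjusted p = 0.00626), the one pathway gene called between genotypes at a given day, beside 0.022% of genes called lower. The study had reported this difference, and the WT rises of Mmp2 and Mmp3, from these arrays and by qRT-PCR. Their directions here are therefore not independent evidence. Stc1, a stanniocalcin that inhibits the pappalysins, was lower at 21 d than at 14 d in WT by -1.08 (SE 0.19, adjusted p = 0.0261), beside 0.346% of genes.

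Of 23 genes of IGF and insulin receptor signalling that were measured none was called in any comparison, and the insulin receptor Insr differed by 0.16 from 7 d to 14 d in WT (SE 0.20, adjusted p = 0.973). Of 7 genes of the growth hormone axis and the circulating carriers none was called either. Igfbp1, the insulin-regulated liver binding protein, averaged 2.38 and Igfals, the third part of the serum complex, averaged 4.18, both below the median of probe set means. Of 4 measured IGFBP-related genes Esm1, an endothelial proteoglycan, was higher at 14 d than at 7 d in WT by 2.11 (SE 0.40, adjusted p = 0.00756). Of 10 measured imprinted growth genes and Igf2 mRNA binding proteins, Cdkn1c, a cell cycle inhibitor, was higher by 1.63 (SE 0.32, adjusted p = 0.00822) and Ndn, a growth suppressor, was lower by -0.38 (SE 0.10, adjusted p = 0.0442) in that comparison, beside 1.63% of genes called higher and 0.912% called lower. H19, in the same imprinted cluster on chromosome 7 as Igf2, shares its probe set with Mir675 and was not given a value.

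The genes most like each member over the 22 arrays are a description, since all arrays share days and series. Igfbp2 had a Pearson r of 0.98 with Cpxm2, 0.97 with Myo7a and 0.965 with Fmod. Igfbp3 was closest to the basement membrane collagens Col4a2 and Col4a1 (r = 0.94 and 0.92) and to Notch3 (r = 0.916). Igfbp7 was closest to Mylk, Mgp and Septin4 (r from 0.93 to 0.938), Igfbp6 to Tnxb (r = 0.918), Igfbp4 to Cnn3 (r = 0.897) and Igfbp5 to Sptbn1 (r = 0.889). Igf1 was closest to Blnk, Tbxas1 and Echs1 (r = 0.962, 0.957 and 0.954), Igf1r followed Pgd (r = 0.889), and the highest r of Igf2r was 0.782, with Actn4. Igf2 was closest to Aamdc (r = 0.897) and to the imprinted gene Peg3 (r = 0.837).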

How the data were processed

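The authors hybridized RNA of 22 granulation tissue samples to Affymetrix mouse whole-genome arrays and deposited log2 signals made by RMA. Which RMA version was run, and if 1 run took in every array, was not given in the sources used here. Because the deposited values hold no background or detection call, a probe set was called dim when its mean was below 4.22, the median of probe set means. The number of arrays limits the precision. After 64 control probe sets were left out, 45037 were fitted in limma 3.58.1 (R 4.3.3) with lmFit and eBayes, on 6 group means and the hybridization series (15 residual and 4.57 prior degrees of freedom), and p-values were adjusted over all of them by Benjamini-Hochberg. Called means an adjusted p under 0.05. The code was tested on simulated data. Of the probe sets, 34945 had 1 gene in the platform annotation, 932 had several and 9160 were unnamed. Exact permutation tests of single values ignored the series and cannot go below 0.1 for 3 against 3 or 0.0286 for 4 against 4 arrays.

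Every member probe set was accounted for, the brightest of a gene by its mean leading. From the pathway lists the called genes were named, with H19, Igfbp1, Igfals and Insr whatever their values, and for each member the genes with the highest Pearson r. The members and lists were chosen with earlier results of these data known. Promoters were taken from RefSeq on GRCm38.p6. The alternatives were no hybridization term, only the arrays compared, median centring, quantile normalization, a filter on dim probe sets, each series alone, a replicate block, a trended robust prior and each array left out.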

Additional observations from a re-analysis of the deposited data

Results flagged for a closer look

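In 112 groups of 4 arrays, 1 per probe set and group, 6 had an array set apart from the other 3 by Dixon's ratio of gap to range, and chance alone marks about 1 group in 20. Igf1 1437401_at had a ratio of 0.92 at 21 d in Mmp13-/- tissue, where replicate 4 read 10.44 and the others 10.67 to 10.69. Igf1r 1428967_at had 0.853 at 21 d in WT, with replicate 4 at 6.52 above 6.18 to 6.23. Igf2r 1424111_at had 0.883 at 14 d in WT, with replicate 4, of series 2, at 9.21 above 8.18 to 8.30. The same Igf2r probe set had 0.852 at 21 d in WT, with replicate 1 at 9.04 below 9.27 to 9.31. Igfbp4 1421991_a_at had 0.879 at 14 d in Mmp13-/- tissue, with replicate 4, of series 2, at 4.75 below 5.99 to 6.16. Igfbp5 1452114_s_at had 0.85 at 14 d in WT, with replicate 3 at 8.75 above 7.62 to 7.79.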

How the results depend on the processing

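Of the 28 probe sets, the 14 called from 7 d to 14 d in WT became 9 without the hybridization term, 8 of them shared, 1 with only the arrays of the groups compared, and 5 to 15 when single arrays were left out, the lowest without WT 14 d replicate 3. The 5 called in Mmp13-/- tissue became 3 without the hybridization term and 1 to 6 when single arrays were left out. The 2 called from 14 d to 21 d in WT became 7 without the hybridization term, 1 with median centring, 4 with a trended robust prior, and 0 with only the arrays of the groups compared, within series 2, or with the replicate block, and they ranged from 0 to 2 when single arrays were left out, with 0 without Mmp13-/- 14 d replicate 4. Leaving out WT 7 d replicate 1 and WT 21 d replicate 3 together, a setting chosen after seeing the data, gave 6 and 1 for the WT comparisons. The counts of 0 for the other 7 comparisons stayed at 0 under every alternative run, and no single value that was called reversed. For the causes of these shifts nothing was tested beyond the settings themselves. Replicate numbers are not stated to pair mice. Over 11 pairs their deviations correlated at -0.161 to 0.609, 6 above 0.1, and 2 of 11 were best with their own number. With the replicate block, calls over all probe sets from 14 d to 21 d in WT went from 189 to 1. With 1 array per genotype of series 2 at 14 d, the comparison of 21 d with 14 d is the least supported one.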

Other observations

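Antisense and overlapping transcripts of the family were read by probe sets that count as no member. The Igf2 antisense transcript Igf2os read 4.74 to 5.57 on all arrays, with group means from 4.90 to 5.17. The Igf1 antisense transcript Igf1os read 3.34 to 4.04, below the median of probe set means. A probe set annotated to both Igf2r and its antisense RNA Airn read 3.82 to 4.56.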
